A study of Arabidopsis thaliana with 33 samples.

Results

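The genes described here are 10 Arabidopsis thaliana genes of salicylic acid immunity: PR1 (AT2G14610), PR2 (AT3G57260), PR5 (AT1G75040), ICS1 (AT1G74710), EDS5 (AT4G39030), CBP60g (AT5G26920), SARD1 (AT1G73805), EDS1 (AT3G48090), PAD4 (AT3G52430) and NPR1 (AT1G64280). They were chosen by name and looked up by locus in 3 RNA-seq comparisons. All 10 had a row in each comparison, and none was absent, out of 23044 genes with a row in at least 1 of them. The groups were wild type (WT), the single mutants arp6-1 and brm-1, and the combined mutant arp6-1;brm-1, here arp6, brm and arp6;brm. No group received a treatment, and every group was shoot tissue of soil-grown plants staged at 4 to 5 leaves and kept in 16 h of light and 8 h of dark. ARP6 belongs to SWR1, a complex that puts H2A.Z, a variant of histone H2A, into nucleosomes. BRM, in full BRAHMA, is a remodelling ATPase of the SWI/SNF class. The series title asks how H2A.Z and BRM work together and against each other on transcription and nucleosomes. RNA was taken from nuclei, with 3 biological replicates in each of the 4 genotypes. There were 2 replicates of H2A.Z ChIP-seq for WT, for arp6 and for brm, and 2 of MNase-seq for all 4 genotypes.

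Salicylic acid is a plant hormone that accumulates after attack by pathogens that feed on living tissue. In Arabidopsis most of it is made from isochorismate, which ICS1 produces in plastids and EDS5 exports to the cytosol. The transcription factors CBP60g and SARD1 switch on ICS1 and other defence genes, and the lipase-like proteins EDS1 and PAD4 act together upstream of them in resistance signalled by immune receptors. NPR1 binds salicylic acid and works with TGA transcription factors to activate output genes, of which PR1, PR2 and PR5 are the usual markers. PR2 is a beta-1,3-glucanase, PR5 is a thaumatin-like protein, and PR1 is a small secreted protein.

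The RNA-seq tables give one log2 fold change, one average log2 CPM (reads scaled to a common library total), a p and an adjusted p for each gene, and hold no value per library, so depth per library and the spread between replicates are unknown. The targeted transcripts followed the labels: in the authors' deposited tables the log2 fold change of ARP6 was -5.73 in arp6 and -5.60 in arp6;brm, and that of BRM -5.64 in brm and -8.87 in arp6;brm. Defining genes of green leaf tissue stood high, with all 5 mesophyll markers at an average log2 CPM of at least 5.10 in the authors' deposited tables. Of 8 root markers, PLT2, RHD6 and EXPA7 had no row in any table and PLT1 had one in arp6 alone. WER and MYB36 were below an average log2 CPM of -2.30 in the authors' deposited tables, while SCR stood at 4.20 to 4.55 and PYK10 at 5.98 to 6.30. Of the mesophyll markers 1 was called in arp6, 3 in brm and 1 in the combined mutant, all lower than in WT, and 0, 1 and 0 of the 5 guard cell markers were called, the 1 being lower. Of 5 trichome markers GL2 was called lower in arp6 and higher in arp6;brm, and of 3 phloem markers SWEET11 was called lower in arp6;brm. Of the root markers with a row (5, 4 and 4), PYK10 was called lower in each table, and no meristem or flower marker was called. These counts stand beside 6.03%, 13.8% and 13.3% of all genes called in arp6, brm and arp6;brm. The part of these shifts in the results was not tested. In whole shoots, fewer cells of a type and less RNA per cell cannot be told apart.

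At an adjusted p under 0.05 (edgeR, Benjamini-Hochberg over all rows, as run by the authors), 3 of the 10 genes were called in arp6, where 6.03% of all 22046 genes were called in the authors' deposited table (3.01% higher, 3.02% lower). PR2, EDS1 and SARD1 rose there. In brm 6 of the 10 were called, where 13.8% of 21925 genes were called (7.62% higher, 6.14% lower), and PR1, PR2, PR5, EDS1, PAD4 and NPR1 rose. In arp6;brm 3 of the 10 were called, where 13.3% of 22352 genes were called (6.16% higher, 7.14% lower): PR2 and PR5 rose and CBP60g fell. PR2 is the one gene called in all 3 comparisons. The median log2 fold change of the 10 genes was 0.79 in arp6, 1.00 in brm and 0.01 in the combined mutant, computed from the authors' deposited tables, beside -0.02, -0.02 and 0.00 for all genes. Genes on the positive side numbered 10 of 10 in arp6, 8 of 10 in brm and 5 of 10 in arp6;brm. The 3 comparisons share their WT libraries, so their values are not independent of each other.

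In brm and in arp6;brm, the outputs PR1, PR2 and PR5 had the 3 highest log2 fold changes of the 10 genes. Levels were back-calculated from the fold change and the average log2 CPM of the authors' deposited tables. The scale differs between the comparisons, by a median of 1.11-fold in the implied WT level, which for each of the 10 genes was highest in that of arp6. Mutant levels were not rescaled, so small differences in level between mutants are not comparable. PR1 stood at 2.9 CPM in WT (2.75 to 3.1 over the 3 tables), 8.09 in arp6, 29.2 in brm and 17.6 in the combined mutant. Its log2 fold changes (1.38, 3.36 and 2.67 in that order of mutants, from the authors' deposited tables) had adjusted p of 0.721, 0.0262 and 0.0735. The group level of PR1 in each mutant was thus above the WT level implied by each table, and the call was made in brm alone. The 3 WT levels come from the same libraries, so their range is no spread between replicates. The 2.61-fold difference of PR1 in arp6 did not pass the test, while the 1.97-fold difference of NPR1 in brm did. The average log2 CPM of PR1 was 2.48, 4.00 and 3.34 in the authors' deposited tables.

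PR2, the glucanase, stood at 2.41 CPM in WT, 11.8 in arp6, 10.7 in brm and 22.1 in the combined mutant by the same back-calculation. The authors' deposited tables give it log2 fold changes of 2.20 and 2.17 in the single mutants arp6 and brm and of 3.27 in arp6;brm, with adjusted p of 0.0067, 0.0281 and 2.76e-07. Both single mutants had nearly the same level and the combined mutant the highest. PR5, the thaumatin-like gene, was at 2.53 CPM in WT, 4.09 in arp6, 9.14 in brm and 6.97 in the combined mutant. PR5 rose in brm and in arp6;brm, by log2 values of 1.88 and 1.53 with adjusted p of 3e-05 and 6.95e-06 in the authors' deposited tables. In arp6 its value was 0.60, with an adjusted p of 0.55 in the authors' deposited table. Average log2 CPM lay between 2.71 and 3.61 for PR2 and between 1.76 and 2.54 for PR5 in the authors' deposited tables.

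**Figure D1:**
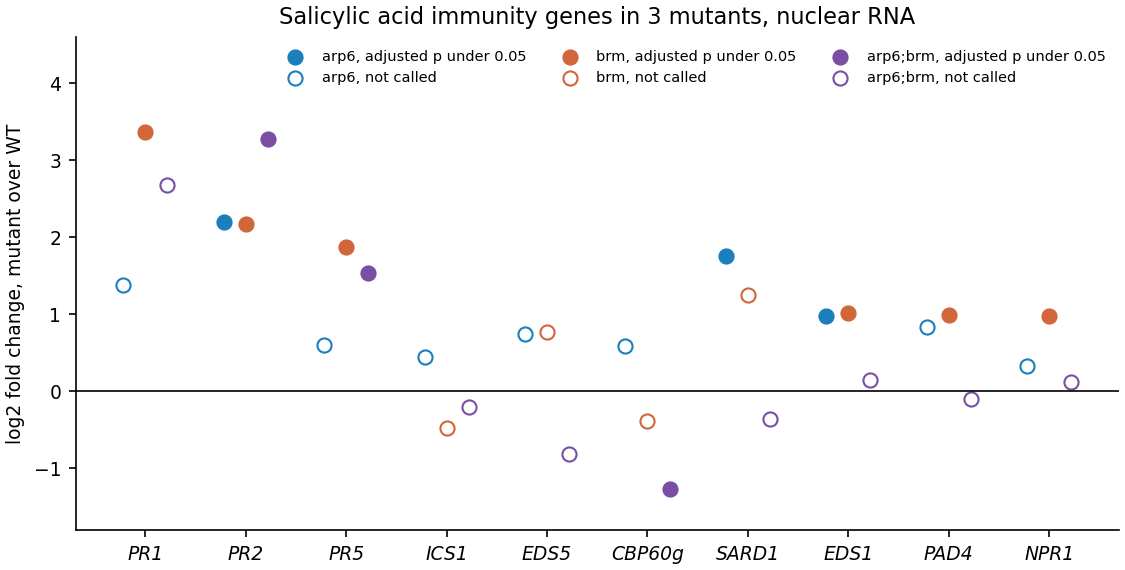
Log2 fold change over WT (vertical axis) of the 10 genes in arp6, brm and arp6;brm, from the authors' deposited tables; filled points have an adjusted p under 0.05 and open points do not. The outputs PR1, PR2 and PR5 lie above 0 in all 3 mutants, and CBP60g in arp6;brm, at -1.27, is the one filled point below 0.

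The genes that make and export the precursor of salicylic acid were not called in any comparison. ICS1, the synthase, was at 2.77 CPM in WT, 3.98 in arp6, 1.97 in brm and 2.31 in the combined mutant. Its log2 fold changes (0.44, -0.47 and -0.20 in the authors' deposited tables) had adjusted p of 0.563, 0.725 and 0.792, at an average log2 CPM of 1.24 to 1.79. EDS5, the exporter, was at 2.36 CPM in WT, 4.16 in arp6, 3.94 in brm and 1.3 in the combined mutant. In the authors' deposited tables its log2 fold changes were 0.74, 0.77 and -0.81, with adjusted p of 0.22, 0.355 and 0.249 and an average log2 CPM between 0.84 and 1.73. AT4G39040 shares 213 bp with EDS5 in the RefSeq table. Its log2 fold change was -0.53 in brm, with an adjusted p of 0.0382 in the authors' deposited table, opposite in sign to that of EDS5. Whether the authors counted by strand is not given in the sources used here, so reads in shared spans cannot be told apart. NPR1 likewise shares 38 bp with the pseudogene AT1G64270 and 214 bp with the long non-coding RNA gene AT1G08667, which had no row.

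Of the related transcription factors CBP60g and SARD1, which act partly redundantly, each was called once and in different mutants. CBP60g, which binds calmodulin, was at 6.47 CPM in WT, 10.3 in arp6, 4.87 in brm and 2.58 in the combined mutant. It fell in arp6;brm by 1.27 on the log2 scale, with an adjusted p of 0.00148 in the authors' deposited table. The log2 values of 0.58 in arp6 and -0.38 in brm had adjusted p of 0.271 and 0.628 in the authors' deposited tables, at an average log2 CPM of 3.10 and 2.49. SARD1 was at 2.12 CPM in WT, 7.57 in arp6, 4.94 in brm and 1.6 in the combined mutant. The authors' deposited table of arp6 gives SARD1 a rise of 1.75 on the log2 scale at an adjusted p of 0.0456, close to the threshold. In brm the value of 1.25 had an adjusted p of 0.102, and in arp6;brm that of -0.36 had 0.77, in the authors' deposited tables, at an average log2 CPM of 1.81 and 0.87. SARD1 shares 640 bp of its 4459 bp span with GIP2 in the RefSeq table. GIP2 had log2 fold changes of 0.18, 0.39 and 0.37, and adjusted p of 0.923, 0.737 and 0.719, in the authors' deposited tables.

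The signalling genes EDS1, PAD4 and NPR1 were higher in brm by about the same amount. EDS1 was at 7.42 CPM in WT, 15.5 in arp6, 14.7 in brm and 7.87 in the combined mutant. It rose in both single mutants, with log2 fold changes of 0.98 and 1.01 and adjusted p of 0.00978 and 0.00827 in the authors' deposited tables. In arp6;brm the value was 0.15, with an adjusted p of 0.81 in the authors' deposited table. EDS1 lies beside AT3G48080, a closely related copy, and reads of the pair may be split between them. That copy had log2 fold changes of 1.14 in arp6, 2.57 in brm and 1.05 in the combined mutant, with adjusted p of 0.659, 0.01 and 0.491 in the authors' deposited tables. PAD4, the partner of EDS1, was at 4.57 CPM in WT, 8.67 in arp6, 8.93 in brm and 4.11 in the combined mutant. It rose in brm by 0.99 on the log2 scale, with an adjusted p of 0.0113 in the authors' deposited table. In arp6 and arp6;brm the values were 0.84 and -0.09, with adjusted p of 0.0785 and 0.885 in the authors' deposited tables. NPR1, the salicylic acid receptor, was at 11.3 CPM in WT, 15 in arp6, 21.8 in brm and 11.7 in the combined mutant. NPR1 rose in brm by 0.98 on the log2 scale, with an adjusted p of 7.67e-04 in the authors' deposited table. Its values in arp6 and arp6;brm were 0.33 and 0.12, with adjusted p of 0.524 and 0.817 in the authors' deposited tables. Average expression in log2 CPM lay between 2.90 and 3.55 for EDS1, 2.09 and 2.76 for PAD4 and 3.49 and 4.04 for NPR1 in the authors' deposited tables.

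**Figure D2:**
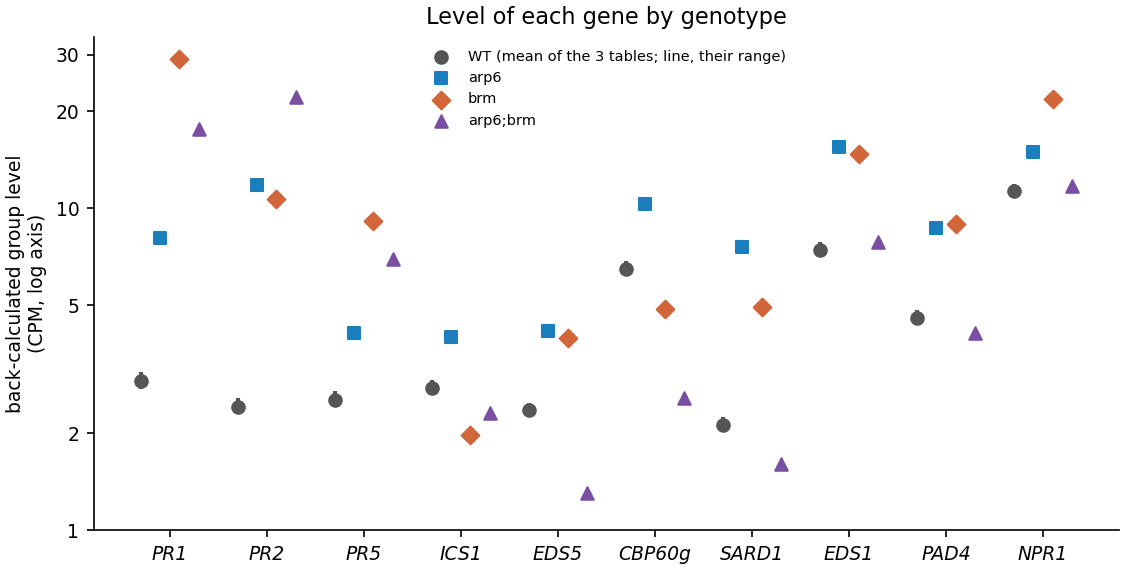
Level of each gene in CPM (log axis) in WT, arp6, brm and arp6;brm, back-calculated from the authors' deposited tables; the WT point is the mean of the 3 tables and the line through it their range. The WT values of a gene differ between tables by at most 1.13-fold, while PR1 spans 2.9 CPM in WT to 29.2 in brm. Mutant levels were not rescaled to a common WT, so small differences between mutants are not comparable. Levels of different genes are not comparable because CPM is not per length.

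The single mutants and arp6;brm were set side by side through the same WT. Against brm, 8 of the 10 genes were lower in arp6;brm, with a median log2 difference of -0.86, where 50.1% of 13098 genes whose average log2 CPM reached 1 in every table were lower. EDS5 and SARD1 do not reach that level in arp6;brm, and of the 8 genes that do, 6 were lower. Over all 21408 genes with a row in every table, 48.6% were lower. SARD1, EDS5 and PAD4 had log2 differences of -1.61, -1.58 and -1.08 there, EDS1 and NPR1 had -0.86 and -0.87, and PR2 and ICS1 had 1.1 and 0.27. Against arp6, 7 of the 10 were lower in arp6;brm, where 49% of the 13098 genes and 46.8% of the 21408 were, and 5 of the 8 genes that reach that level. The remaining 3 were the outputs PR1, PR2 and PR5, with log2 differences of 1.29, 1.07 and 0.93. SARD1, CBP60g and EDS5 had -2.12, -1.85 and -1.55 in that contrast. In these values the outputs were higher and the other 7 genes lower in arp6;brm than in arp6. NPR1 differed least of these 7, at -0.21, and 31.3% of the 13098 genes had a lower value than that. No test of these differences was possible, since no comparison of the mutants with each other and no value per library is at hand.

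Other genes of the pathway were read from 6 lists that hold 72 genes in all, each with a row in every table. Of the 72, 10 were called in arp6 (9 higher, 1 lower), 20 in brm (18 higher, 2 lower) and 14 in arp6;brm (9 higher, 5 lower). These are 13.9%, 27.8% and 19.4% of the lists, beside the 6.03%, 13.8% and 13.3% of all genes. By list, the share called ran from 0% to 23.5% in arp6, 9.09% to 42.9% in brm and 12.5% to 28.6% in arp6;brm. For the 8 genes that modify salicylic acid it was 0% in arp6 and 12.5% in arp6;brm. Only 3 of these 8 genes reached an average log2 CPM of 1 in those tables. For the 11 genes that restrain this immunity it was 9.09% in brm. In lists this small, 1 gene moves these shares by more than their distance from the share of all genes. The median log2 fold change of the 72 was 0.24, 0.60 and 0.11, computed from the authors' deposited tables.

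Among 17 genes that respond to salicylic acid, 4 were called in arp6 (3 higher), 5 in brm (all higher) and 3 in arp6;brm (1 higher), with median log2 fold changes of 0.91, 1.67 and 0.22. GRX480, a glutaredoxin that binds TGA factors, rose in arp6 and brm, with log2 fold changes of 3.23 and 4.21 and adjusted p of 4.07e-10 and 1.79e-15 in the authors' deposited tables. In arp6;brm GRX480 had 1.28, with an adjusted p of 0.16 in the authors' deposited table. BG3, a glucanase gene near PR2, rose in brm and arp6;brm by log2 fold changes of 6.31 and 4.70, with adjusted p of 2.95e-11 and 1.08e-06 in the authors' deposited tables. In arp6 BG3 had 2.46 and an adjusted p of 0.553, with a low average log2 CPM of -0.65, in the authors' deposited table. WRKY18, a transcription factor gene, rose in arp6 and brm and fell in arp6;brm, at 1.83, 1.91 and -1.51 on the log2 scale in the authors' deposited tables. The adjusted p of WRKY18 were 5.29e-10, 9.72e-10 and 5.41e-05 in the authors' deposited tables. WRKY70, another of that family, rose in arp6 by 1.22 and fell in arp6;brm, at -0.86, with adjusted p of 5.77e-04 and 0.0143 in the authors' deposited tables. The 1 gene of this list that fell in arp6, named after its values were seen, was SAG13, at -4.80 with an adjusted p of 0.00837 in the authors' deposited table.

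Of 15 genes of synthesis and upstream signalling, 2 were called in arp6 (both higher), 5 in brm (4 higher) and 4 in arp6;brm (3 higher), with median log2 fold changes of 0.33, 0.36 and 0.14. SAG101, a relative of PAD4 that also pairs with EDS1, rose in brm by 1.64 with an adjusted p of 2.71e-09 in the authors' deposited table. ADR1-L2, a helper immune receptor gene, rose in arp6 by 0.83 with an adjusted p of 3.32e-04 in the authors' deposited table. PBS3, which joins isochorismate to glutamate on the way to salicylic acid, rose in arp6;brm by 1.81 with an adjusted p of 9.1e-04 in the authors' deposited table. PAL3, of the phenylalanine ammonia-lyase family, fell in brm and arp6;brm, with -1.47 and -1.34 and adjusted p of 2.81e-04 and 5.43e-06 in the authors' deposited tables.

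Of 14 genes of perception and of NPR1's partners, 2 were called in arp6 and 3 in brm, all higher, and 2 in arp6;brm, 1 higher and 1 lower, with medians of 0.15, 0.05 and 0.13. NIMIN2, whose product binds NPR1, rose in all 3, with log2 fold changes of 2.27, 2.62 and 1.14 and adjusted p of 4.46e-07, 2.97e-14 and 0.0131 in the authors' deposited tables. NIMIN1 and TGA3 rose in brm, by 1.86 and 0.70, with adjusted p of 0.0148 and 0.0466 in the authors' deposited table. NPR3, a second salicylic acid receptor that represses output genes, rose in arp6 by 0.93 and fell in arp6;brm, at -0.99, with adjusted p of 8.61e-04 and 0.00501 in the authors' deposited tables.

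Of 7 genes of systemic resistance, 1, 3 and 2 were called in arp6, brm and arp6;brm, all higher, with medians of 0.47, 0.75 and 0.13. LLP1, a lectin-like gene, rose in each by 1.81, 1.81 and 0.94, with adjusted p of 1.5e-07, 7.72e-12 and 6.74e-04 in the authors' deposited tables. AED1 and SARD4 rose in brm, by 2.1 and 0.75, and AZI1 rose in arp6;brm, by 0.88, with adjusted p of 0.0166, 0.0339 and 0.00512 in the authors' deposited tables. Of 8 genes that modify salicylic acid, 0, 3 and 1 were called, with medians of 0.24, 0.74 and 0.10. DMR6, a salicylic acid hydroxylase, rose in brm by 2.29, and GH3.5, an acyl acid amido synthetase, rose in brm and arp6;brm by 1.02 and 0.95, in the authors' deposited tables. Their adjusted p were 3.27e-04, 0.00614 and 0.00338 in the authors' deposited tables. MES9, a methyl esterase, fell in brm, at -7.91 with an adjusted p of 8.96e-04 in the authors' deposited table. Its average log2 CPM there, -1.31 in the authors' deposited table, is low, and with so few reads the size of the change depends on the authors' prior count. Of 11 genes that restrain this immunity, 1, 1 and 2 were called, with medians of 0.06, 0.40 and -0.11. BAP1 rose in arp6 and arp6;brm, by 1.57 and 0.89, with adjusted p of 4.2e-05 and 0.0348 in the authors' deposited tables. CAMTA3 rose in brm by 0.60, and the kinase gene MPK4 fell in arp6;brm, at -0.78, with adjusted p of 0.0292 and 2.4e-04 in the authors' deposited tables.

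**Figure D3:**
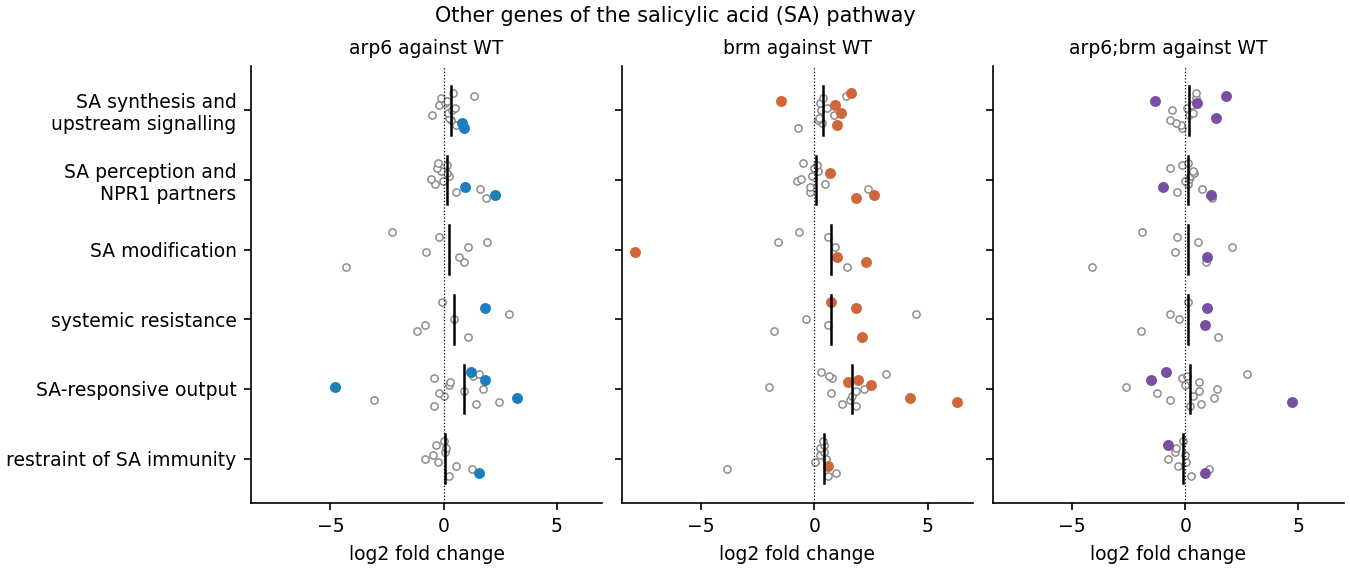
Log2 fold change over WT (horizontal axis) of the 72 genes of 6 lists (vertical axis) in arp6, brm and arp6;brm, from the authors' deposited tables; filled points have an adjusted p under 0.05, and the black line is the list's median. The SA-responsive outputs have medians of 0.91, 1.67 and 0.22 in the 3 panels.

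Across the 3 log2 fold changes, PR1 was compared with 13097 genes whose average log2 CPM was at least 1 in each table. The nearest by Euclidean distance were RK3 (AT4G21380), a receptor kinase gene, at 0.77, AT1G13670 at 0.81, RAP2.9 (AT4G06746) at 0.86, FAR1 (AT5G22500) at 0.87 and KIN1 (AT5G15960) at 1.00. Their log2 fold changes in brm were between 2.57 and 3.60 in the authors' deposited table. This likeness rests on 3 values that share WT. The genes were picked by that distance, so their closeness to PR1 in brm follows from the rule. Of the 20 protein-coding genes that flank the members on their chromosomes, 1 of 15 with a row was called in arp6, 3 of 16 in brm and 4 of 15 in arp6;brm, where 6.03%, 13.8% and 13.3% of all genes were called. The called genes were TLP-3 beside PR5 in arp6, AT4G39040, AT3G48080 and RR5 in brm, and XTH10 beside PR1, QKY, RR5 and OEP7 in arp6;brm, named after their values were seen. PRB1, next to PR1 and of the same family, had log2 fold changes of 1.06, 1.67 and 1.51, with adjusted p of 0.68, 0.3 and 0.294 in the authors' deposited tables.

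The authors called H2A.Z peaks library by library. Libraries held 5553946 to 15765419 tags, and the file headers put 24.26% and 41.83% of tags in peaks for WT, 6.02% and 5.14% for arp6 and 42.51% and 35.3% for brm. WT replicate 1 was called at 4-fold above input and 1-fold above its surroundings, the other 5 at 3-fold and 4-fold. Estimated fragment length was 164 bp in both arp6 libraries and 414 to 458 bp in the other 4. The part of these differences in the peak values was not tested. A gene was taken to have a peak if at least 1 bp of one lay in its span or within 500 bp on either side. In WT replicates 1 and 2, 4 and 7 of the 10 genes had a peak, where 42.2% and 64.8% of 27444 protein-coding genes had one. In brm the counts were 6 and 5 of 10, where 65.8% and 59.6% had one. In arp6 they were 2 and 1 of 10, where 13% and 14.2% had one. In every library the share of the 10 genes differed from that of all genes by less than 1 gene of the 10. In both replicates together 4 genes had a peak in WT, 0 in arp6 and 4 in brm, where 38.2%, 4.7% and 51.8% of protein-coding genes did.

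Peak length summed over the 10 genes and their flanks was 3714 and 7134 bp in the WT libraries, 673 and 501 bp in arp6 and 6781 and 4744 bp in brm. The means were 5424 ± 2418 bp (SD, n = 2) in WT, 587 ± 122 bp (SD, n = 2) in arp6 and 5762.5 ± 1440.4 bp (SD, n = 2) in brm. Both arp6 libraries lay below both WT libraries, and the exact permutation test, two-sided, gave p = 0.33, the lowest value possible with 2 samples a group. The brm and WT libraries overlapped, and the same exact permutation test gave p = 1. As a share of the searched length, WT had 9.74% and 18.7%, arp6 1.76% and 1.31% and brm 17.8% and 12.4%, beside 10.3% and 20.3%, 2.46% and 2.52%, and 20.4% and 16.7% over all protein-coding genes. Without WT replicate 2, the difference between arp6 and WT was -3127 bp in place of -4837 bp. That between brm and WT, 338.5 bp, was -1371.5 bp without WT replicate 1 and -680 bp without brm replicate 1.

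The genes differed in where H2A.Z was found. PR2, ICS1, EDS5 and CBP60g had a peak in both WT libraries, PR1, PR5 and PAD4 in WT replicate 2 alone, and EDS1, NPR1 and SARD1 in neither. Positions are those of the authors' lists on TAIR10, counted from 1. At PR1 a peak of 646 bp was listed in WT replicate 2, on chromosome 2 from 6241974 to 6242619, and one of 501 bp in brm replicate 1. At PR2 the WT peaks ran on chromosome 3 from 21188556 to 21189848 and from 21188620 to 21189719, and in both brm libraries they were 501 bp long, against 1293 and 1100 bp in WT. The peaks of ICS1 were 751 and 2353 bp long in WT and 2107 and 1918 bp in brm, the WT replicate 2 peak lying on chromosome 1 from 28070158 to 28072510. No arp6 peak lay within 500 bp of PR1, PR2, ICS1, EDS5, CBP60g, EDS1 or NPR1 in either library. At PR5 a peak was listed in WT replicate 2 (893 bp), in arp6 replicate 1 (501 bp, chromosome 1 from 28177845 to 28178345) and in brm (1839 and 785 bp). At CBP60g the WT replicate 1 peak lay in the gene, on chromosome 5 from 9476541 to 9477325, and the WT replicate 2 peak beside it, from 9479124 to 9481334. SARD1 had a single peak, in arp6 replicate 2. Of the 3 genes called in arp6, PR2 had a peak in both WT libraries, as did 38.2% of protein-coding genes, and EDS1 and SARD1 had none in WT. Whether the RNA changes go with the loss of H2A.Z peaks was not tested.

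**Figure D4:**
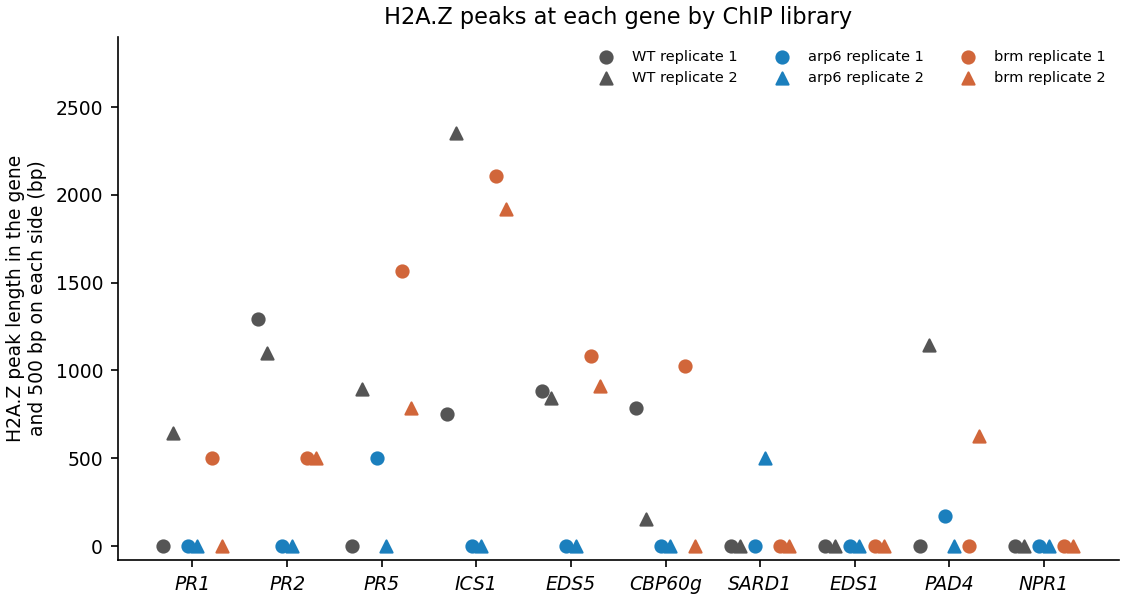
Length of H2A.Z peak (vertical axis, bp) in each gene and 500 bp on each side, with 1 point per ChIP library of WT, arp6 and brm (circles, replicate 1; triangles, replicate 2). The arp6 points lie at 0 except at PR5, SARD1 and PAD4, and EDS1 and NPR1 are at 0 in all 6 libraries.

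Nucleosome occupancy was compared by the authors between 1 pooled data set of each mutant and WT, so no replicate check is possible. Called positions had an FDR under 0.05 and a log2 fold change of 1 or more, in either direction, at their summit. In the genes and 500 bp on each side, 4 of 227 positions were called in arp6, 11 of 238 in brm and 4 of 225 in the combined mutant, by the authors' deposited tables. These are 1.76%, 4.62% and 1.78%, beside 5.15%, 4.18% and 4.68% of all nuclear positions, so the share in brm was near that of all positions and those in arp6 and arp6;brm were below it. Of the called positions, 4 of 4, 10 of 11 and 3 of 4 were higher in the mutant. Over all nuclear positions, 1.06%, 2.53% and 1.93% were called higher and 4.09%, 1.65% and 2.75% lower. The median log2 fold change at the genes was 0.23, 0.25 and 0.21, beside 0.15, 0.21 and 0.21 for all positions in the authors' deposited tables.

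The transcription factor gene SARD1, which had the most positions of the 10 genes in brm (36 of 238), held 4 of the 11 called there. They alternated with positions that were not called and were centred on chromosome 1 at 27745242, 27745452, 27745727 and 27746042, with WT summit signals of 72, 72, 124 and 100 and brm signals of 190, 176, 252 and 266 in the authors' deposited table. Their log2 fold changes were 1.40, 1.29, 1.07 and 1.41, with FDR of 0.0198, 0.0318, 0.0352 and 0.00836 in the authors' deposited table. A position at the edge of the SARD1 span, at 27744792 in arp6 and 27744782 in arp6;brm, was also higher, with log2 fold changes of 1.44 and 1.89 and FDR of 0.0453 and 0.0183 in the authors' deposited tables. The 640 bp that SARD1 shares with GIP2 are at this end of its span. The edge position in arp6 and the brm position at 27745242 thus lie in both genes and cannot be assigned to SARD1 alone. At PR5 a position just outside the gene was higher in arp6 (28177532) and in brm (28177502), with log2 fold changes of 1.36 and 1.37 and FDR of 0.0384 and 0.0138 in the authors' deposited tables. ICS1 held the one position called lower in brm, at 28069932, where the summit signal was 386 in WT and 150 in brm, with a log2 fold change of -1.25 and an FDR of 0.00393 in the authors' deposited table. PR1 had 1 called position, in brm, at 6241927 on chromosome 2, with a log2 fold change of 1.2 and an FDR of 0.00961 in the authors' deposited table. EDS1 and CBP60g had none in any comparison.

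**Figure D5:**
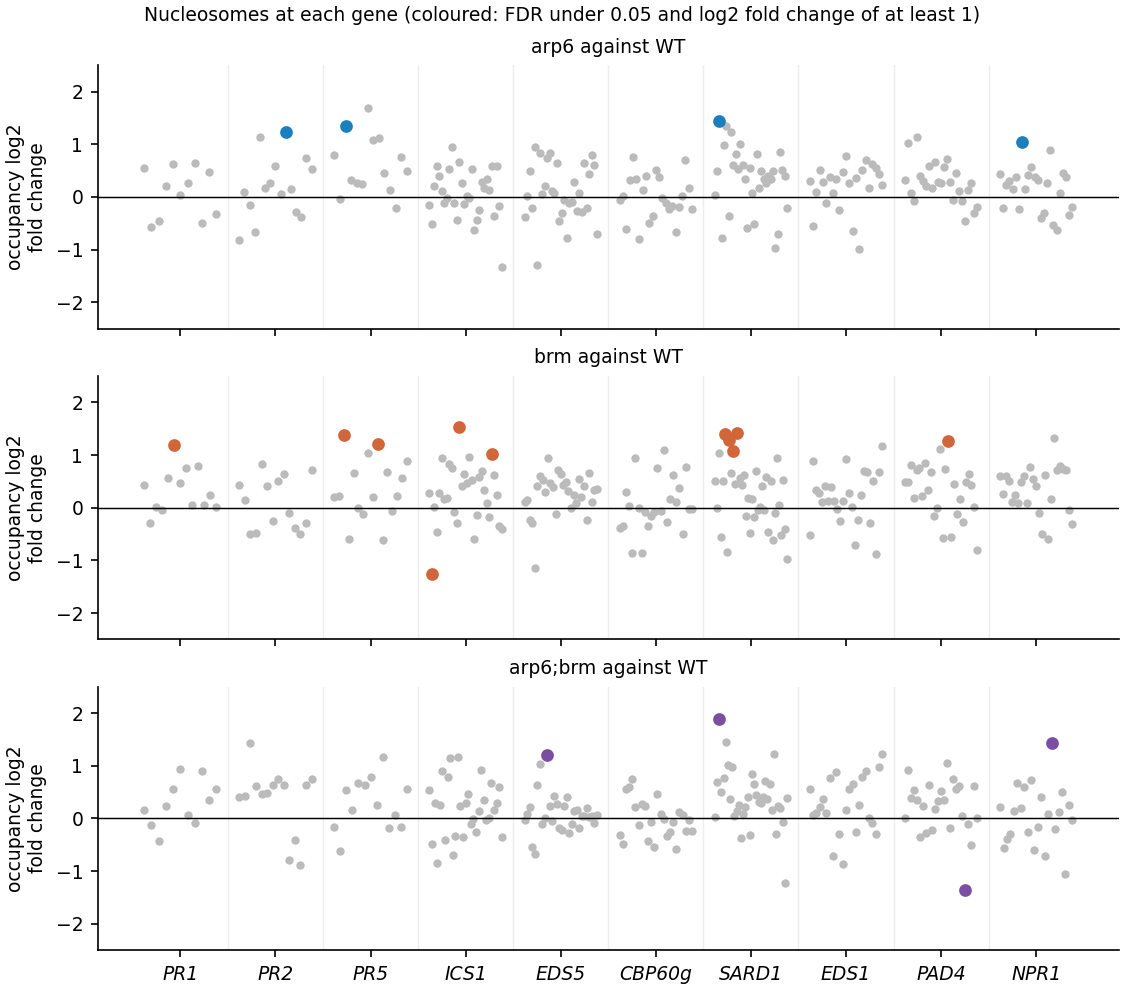
Occupancy log2 fold change at the summit (vertical axis) of each nucleosome position in the 10 genes and 500 bp on each side, in order along the chromosome within each gene and not to scale, for arp6, brm and arp6;brm. Coloured points have an FDR under 0.05 and a log2 fold change of 1 or more in either direction. SARD1 holds 36 of the 238 points in brm and 4 of the 11 coloured ones.

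No deletion that the authors called in the genomic DNA of 50 pooled arp6 plants lay in any of the 10 genes or within 500 bp. The nearest was 6060 bp from PR1, on chromosome 2 from 6248601 to 6253800, and the next 8429 bp from EDS1. Within 50 kb (50000 bp) PR1 had 7 deletions, CBP60g 3, EDS1 and NPR1 1 each and the other 6 genes 0. The share of all genes with deletions this near was not computed, so whether these counts are unusual is not known. The part of these deletions in the values of PR1 in arp6 and arp6;brm was not tested.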

How the data were processed

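The genes and the wider lists were chosen with earlier results of these data known. The p-values compare 3 biological replicates with 3. Per the labels' protocols, RNA-seq libraries came from 100 ng of nuclear RNA, read as 36-nt pairs. The submitters' processing notes name TopHat2, HTSeq, edgeR, Bowtie2, BWA, SAMtools, HOMER and TAIR10. The authors deposited edgeR output: the log2 fold change, the average log2 CPM, a p-value and its adjusted p-value. Recomputing the Benjamini-Hochberg adjustment over all rows gave the deposited values. The 3 counter rows that name no gene took 66.9%, 69.3% and 70.7% of the CPM and were left out of counts of genes. CPM are thus shares of totals that include them. Group levels assume that the average log2 CPM is the log2 of the mean of 2 equal groups. The implied WT levels of 13098 genes differed between tables by a median of 1.11-fold. The authors deposited the MNase-seq occupancy signal and its FDR, 1 pooled data set per genotype. Gene names and spans came from RefSeq (TAIR10.1) by locus tag. WT nucleosome signal was lowest at unshifted gene ends in 10 of 10 chromosome stretches, so spans were used with the TAIR10 positions. The table gives no strand, so the planned window at gene starts was replaced by the span with 500 bp on each side, and no promoter sequence or motif was analysed here. From each wider list, up to 4 called genes with the smallest adjusted p were named, and the 5 genes nearest to PR1. The adjustment, the group levels and the summing of peak length were tested on simulated data, and the other steps were not. The simulated group levels were made with the assumed formula, so that test does not check the assumption. Python 3.11.15, numpy 2.4.6, pandas 2.3.3 and matplotlib 3.10.9 were used.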

Additional observations from a re-analysis of the deposited data

How the results depend on the processing

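No paired analysis was possible because the RNA-seq and MNase-seq tables hold no value per library and the peak counts come from no test, so neither a replicate block, nor leaving out RNA-seq replicates, nor DESeq2 could be run, nor the windows that need a strand. In arp6, 2 of the 10 genes were called in place of 3 at an adjusted p under 0.01, and 4 under 0.2. An added minimum of 1 on the size of the log2 fold change also left 2. In arp6;brm the number was 3 under every threshold and adjustment tried except an adjusted p under 0.2, which called 4. In brm it was 3 in place of 6 at an adjusted p under 0.01, 4 with the fold minimum and 7 under 0.2. Adjusting over rows that name a gene moved none of the 10 genes and none of the 22 genes named by rule from the lists across the threshold. Adjusting over rows whose average log2 CPM reached 1 moved none of those that stay in. It leaves out the calls of PBS3 in arp6;brm and MES9 in brm, and the count for the 72 genes in arp6;brm was 12 in place of 14. SAG13 and the flanking genes were not run. Of the 72 genes of the wider lists, an adjusted p under 0.2 called 17 in place of 10 in arp6 and 27 in place of 14 in arp6;brm, where an adjusted p under 0.01 called 9 and an added minimum of 1 on the size of the log2 fold change left 6. These settings for the wider lists, and the gene span without flanks, were chosen after seeing the data. With a peak in at least 1 replicate, 7 genes counted in WT and 7 in brm, in place of 4 each, and 3 in arp6 in place of 0. For called nucleosome positions, an FDR under 0.01 left 0 in arp6 in place of 4, 3 in brm in place of 11 and 0 in the combined mutant in place of 4, and the point value left 7 in brm. Shares over all genes or positions were computed at the main settings only, so the counts at changed settings have none beside them. The summed peak length of arp6 minus WT ranged from -6547 to -3127 bp when 1 library was left out. For brm minus WT it ranged from -1371.5 to 2048.5 bp and was below 0 without WT replicate 1 (-1371.5) or brm replicate 1 (-680). The causes of these shifts were not tested. The depth of the RNA-seq libraries is unknown, and low peak counts in arp6 come with few tags in peaks.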
